A study of Felis catus with 8 samples.

Results

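Transcripts of 10 genes for apolipoproteins and for lipoprotein assembly were followed in the livers of male domestic cats (Felis catus) raised on 4 diets. The genes were APOA1, APOA2, APOA4, APOA5, APOB, APOC3, APOE, APOM, MTTP and LCAT. They were chosen by name, read from the probe sets for which the platform annotation of the array names that gene and no other, and they were 10 of 17910 genes tested. The annotation gave 118 probe sets to these genes alone, out of 224320 probe sets with a single gene. Of the 118, 83 had a mean signal above the median of all probe sets and were kept, and 35 did not. Several probe sets were deposited more than once with nearly equal values (within 0.02 on the log2 scale on every array). With these counted once, the 83 carried 67 distinct signals. Probe sets that ran parallel at a larger offset still counted apart, so 67 may overstate how many signals were separate. All 10 genes had at least 1 kept probe set, and all 10 symbols also name a gene in the RefSeq gene table of the cat genome.

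Lipoproteins carry water-insoluble lipid through plasma inside a shell of phospholipid and apolipoproteins. The hepatocyte builds very-low-density lipoprotein on a single large molecule of apolipoprotein B, to which the microsomal triglyceride transfer protein, encoded by MTTP, adds lipid in the endoplasmic reticulum. It also secretes apolipoprotein A-I, which accepts cholesterol from cells to form high-density lipoprotein, and the enzyme LCAT, which esterifies that cholesterol. The smaller exchangeable apolipoproteins move between particles and set how fast lipoprotein lipase and hepatic receptors clear them.

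The combined diet held 8.6% trans fat, 24% high-fructose corn syrup (HFCS) and 1.125% monosodium glutamate (MSG). The trans-fat/HFCS diet held the same fat and syrup without MSG, the MSG diet was standard feline chow with 1.125% MSG added, and the control diet was that chow alone. Feeding of the dams began 3 weeks before they were mated and went on through gestation and nursing. Their sons kept the maternal diet after weaning and were sampled at 9 months of age, so prenatal and later exposure cannot be told apart. Total RNA from snap-frozen liver was hybridised to human whole-transcript arrays, 2 arrays per diet and 8 in all. The labels speak of 4 to 5 livers per diet used for RNA, and 2 arrays per diet were analysed here. A different cat number labels each array, and pooling of RNA is not mentioned, so p-values measure only the spread between these arrays. Breed and litter were not given in the sources used here.

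The arrays had median intensities between 5.25 and 5.28. Hepatocyte markers had a mean log2 intensity of 8.16 to 8.47 over the 14 genes on every array, ALB averaging 9.77. Skeletal muscle markers stood apart on the pair of trans-fat/HFCS arrays. Their summed intensity over 12 genes was 194 to 212 on combined arrays, 815 to 832 on trans-fat/HFCS arrays, 192 to 194 on MSG arrays and 188 to 193 on control arrays, and 12 of 12 were higher on the trans-fat/HFCS diet than on control (limma, adjusted p under 0.05). In bulk liver, fewer cells of a type and less RNA per cell cannot be told apart. Cat RNA was read by probes designed for human transcripts, so the brightness of one gene was not set against that of another.

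APOA5 was the 1 gene of the 10 that passed the test in any comparison. It encodes apolipoprotein A-V, a scarce liver-made protein that promotes the hydrolysis of plasma triglyceride by lipoprotein lipase. Its log2 intensity was 5.58 and 5.64 on the combined arrays, 5.41 and 5.34 on the trans-fat/HFCS arrays, 5.09 and 5.13 on the MSG arrays, and 4.54 and 4.90 on the control arrays. The pairs of arrays did not overlap between any 2 diets, with the order combined, trans-fat/HFCS, MSG, control from high to low. How many of all genes had pairs without any overlap was not counted. Of the 3 neighbouring pairs in that order, 2 were tested and neither passed: combined minus trans-fat/HFCS was 0.23 (95% interval -0.16 to 0.63), and MSG minus control was 0.39 (-0.01 to 0.79), or 0.21 without the first control array and 0.57 without the second. The trans-fat/HFCS and MSG diets, with means of 5.37 and 5.11, were not tested against each other.

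Averaged over diets with and without MSG, APOA5 rose by 0.58 on the log2 scale with trans fat and HFCS (SE 0.12, 95% interval 0.30 to 0.86, 1.49-fold, 4 arrays against 4, limma adjusted p = 0.026). Thus 1 of the 10 genes passed, against 7.66% of all genes in either direction and 4.44% in the higher and 3.22% in the lower direction. The call is close to its threshold. Leaving out the second control array kept it (0.67, adjusted p = 0.045), but leaving out any other single array ended it, with values from 0.49 to 0.59 and limma adjusted p between 0.054 and 0.10. Taking the median instead of the mean of its probe sets gave 0.73 and also ended the call (limma adjusted p = 0.057).

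The skeletal muscle signal lay on the trans-fat/HFCS arrays alone, and APOA5 was highest on the combined arrays, where muscle markers were at 194 to 212. Without the trans-fat/HFCS arrays, the effect of trans fat and HFCS is the combined diet against the MSG diet, 0.50 (limma adjusted p = 0.22), which did not pass the test with 2 arrays on each side. The part of muscle RNA in the APOA5 values of the trans-fat/HFCS arrays was not tested. Against control, APOA5 differed by 0.89 on the combined diet (SE 0.18, 0.49 to 1.29, 1.85-fold, limma adjusted p = 0.052), by 0.66 on the trans-fat/HFCS diet (SE 0.18, adjusted p = 0.090) and by 0.39 on the MSG diet (adjusted p = 0.66). These 3 comparisons share the control arrays, whose spread (SD 0.25) was the widest of the 4 diets for this gene.

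**Figure D1:**
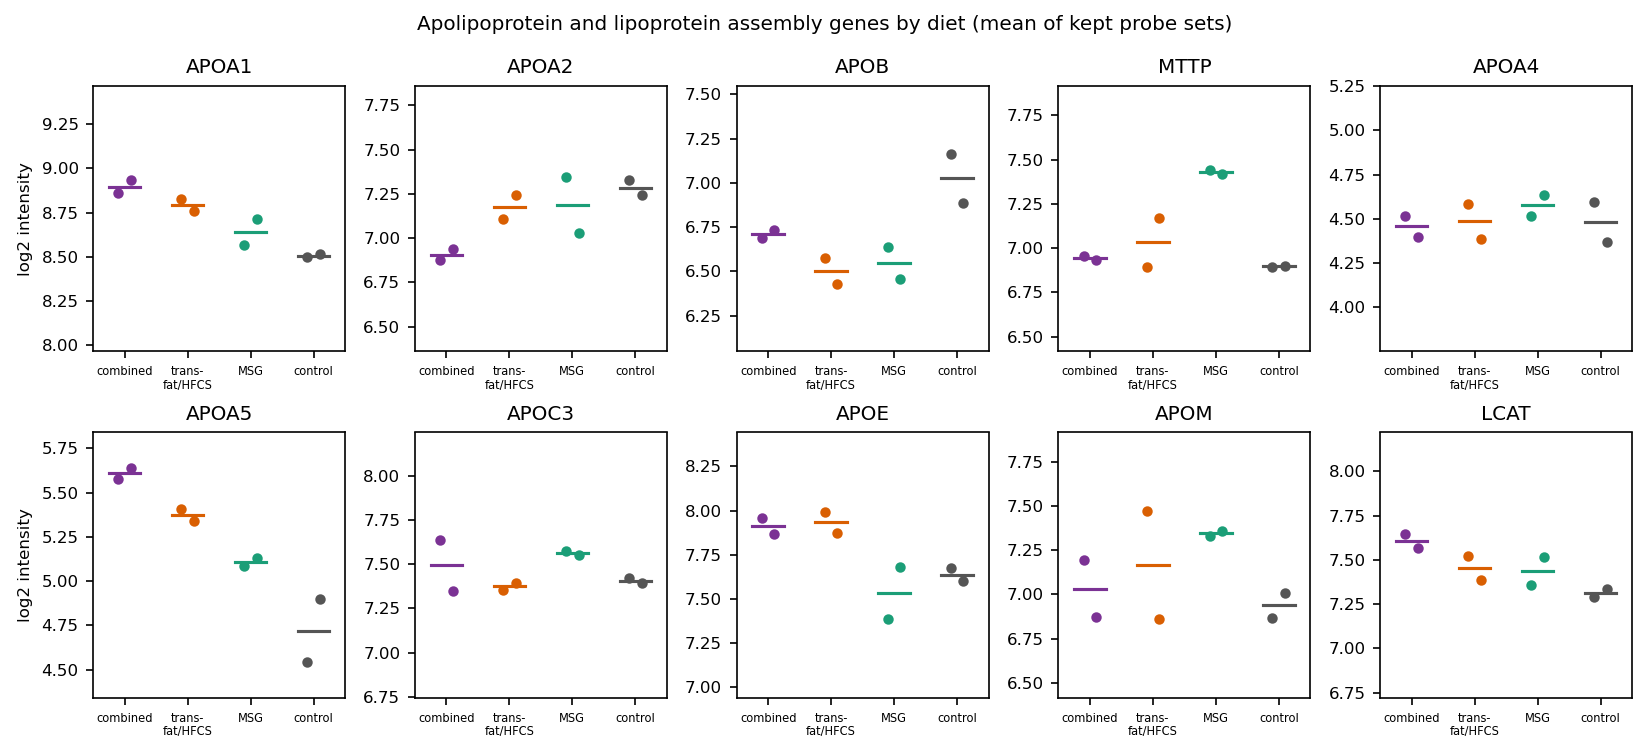
Log2 intensity (vertical axis, mean of the kept probe sets of each gene) on each of the 8 arrays, by diet (horizontal axis). Points are arrays, bars are the mean of 2 arrays, and every panel spans 1.5 log2 units. APOA5 lies between 4.54 and 5.64 with no overlap between diets.

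The 4 kept probe sets of APOA5 all rose with trans fat and HFCS but differed in size. Probe set 7951856 read 5.59 and 5.63 on the combined arrays, 4.81 and 4.96 on the trans-fat/HFCS arrays, 4.53 and 4.61 on the MSG arrays, and 3.77 and 3.53 on the control arrays. It rose by 1.14 with trans fat and HFCS (SE 0.17, limma adjusted p = 0.024), and it was the 1 signal of the 67 to pass, where 2.71% of all kept probe sets did. The brightest, 7951857, read 7.35 and 7.42 on the combined arrays, 6.88 and 7.00 on the trans-fat/HFCS arrays, 6.79 and 6.81 on the MSG arrays, and 6.22 and 6.50 on the control arrays, a change of 0.59 with trans fat and HFCS (limma adjusted p = 0.15). Both repeated the order of the diets seen for the gene. The remaining 2 gave 0.47 and 0.13, did not pass and did not repeat that order. The dimmest kept one, 7951854, gave the 0.47. Its means were 2.72 on the combined and 2.75 on the trans-fat/HFCS diet, near the filter at 2.43. The second brightest, 7951858, gave the 0.13. It read 7.11 and 6.33 on the combined arrays and 6.07 and 7.29 on the control arrays. Its MSG main effect was -0.09, and its control arrays lay further apart than those of the other kept probe sets of APOA5. The call of 7951856 was lost when any 1 array was left out (limma adjusted p between 0.067 and 0.10).

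**Figure D2:**
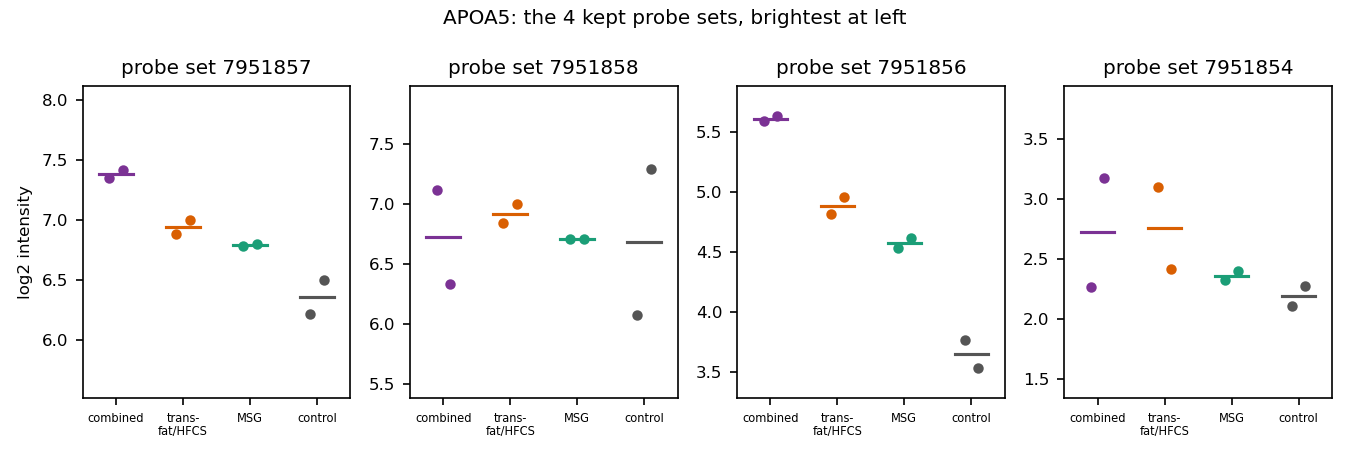
Log2 intensity (vertical axis) of the 4 kept probe sets of APOA5 on the 8 arrays, by diet (horizontal axis), brightest probe set at left. Points are arrays, bars are means of 2 arrays and each panel spans 2.6 log2 units. Probe set 7951856 lies between 3.53 and 5.63 and has the widest separation.

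APOA1, APOA4 and APOC3 are the neighbours of APOA5: in the RefSeq gene table of the cat (assembly F.catus_Fca126_mat1.0) APOA5, APOA4, APOC3 and APOA1 are consecutive coding genes on chromosome D1. APOA1 encodes the main structural protein of high-density lipoprotein. It had log2 intensities of 8.86 and 8.93 on the combined arrays, 8.83 and 8.76 on the trans-fat/HFCS arrays, 8.57 and 8.71 on the MSG arrays, and 8.50 and 8.52 on the control arrays. All 4 arrays with trans fat and HFCS lay above all 4 without, and the change was 0.27 (SE 0.11, 0.02 to 0.52, unadjusted p = 0.037, limma adjusted p = 0.17). Its 4 distinct probe sets were all positive (0.08 to 0.61), the brightest, 7951868, giving the smallest value.

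APOA4 encodes an exchangeable apolipoprotein made mainly by intestine and also by liver. Its log2 intensity was 4.52 and 4.40 on the combined arrays, 4.59 and 4.39 on the trans-fat/HFCS arrays, 4.52 and 4.63 on the MSG arrays, and 4.60 and 4.37 on the control arrays. These values overlapped throughout, and the change with trans fat and HFCS was -0.06 (95% interval -0.33 to 0.22). Its brightest probe set, 7951863, gave -0.20. Markers of enterocytes, the intestinal cells that make APOA4, APOB and MTTP, had summed intensities of 247 to 265 on combined arrays, 237 to 248 on trans-fat/HFCS arrays, 226 to 236 on MSG arrays and 263 to 268 on control arrays. None of these 10 markers passed in any comparison, and their mean log2 levels ran from 2.53 (MUC13) and 2.57 (FABP2), near the filter at 2.43, to 5.45 (CDX2) and 6.77 (ANPEP). The part of enterocyte RNA in the APOA4 values was not tested.

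APOC3 encodes an inhibitor of lipoprotein lipase and of the hepatic uptake of remnants. Its log2 intensity was 7.64 and 7.35 on the combined arrays, 7.36 and 7.39 on the trans-fat/HFCS arrays, 7.58 and 7.55 on the MSG arrays, and 7.42 and 7.39 on the control arrays. The change with trans fat and HFCS was -0.05 (-0.32 to 0.21), an average over probe sets that disagreed. The brightest, 8077207, gave -0.53 and entered the average 2 times, with its copy. With copies counted once the change of APOC3 was 0.04. The other 4 signals counted as distinct were positive, the highest at 0.34. None of the 5 passed. Of the positive ones, 8077205 and 7944039 ran nearly parallel, with means of 7.84 and 7.66 on the combined diet and 7.74 and 7.56 on control. The positive signals are therefore not independent readings. The 4 neighbouring genes therefore gave changes of 0.58, -0.06, -0.05 and 0.27 in their order on the chromosome, 1 of which passed.

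APOE had a change of 0.34 with trans fat and HFCS (SE 0.12, 0.06 to 0.61, unadjusted p = 0.022, limma adjusted p = 0.13). It encodes the ligand by which remnant particles bind hepatic receptors, and it is made by hepatocytes and by macrophages. Its log2 intensity was 7.96 and 7.87 on the combined arrays, 7.99 and 7.87 on the trans-fat/HFCS arrays, 7.39 and 7.68 on the MSG arrays, and 7.67 and 7.60 on the control arrays. The 4 arrays with trans fat and HFCS lay above the other 4. APOE, APOA1 and APOA5 were the 3 genes of the 10 so separated, against 15.0% of all genes in either direction and 8.29% in the higher direction. By MSG, none of the 10 was separated, where 2.68% of all genes were.

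The APOE value rests on 1 kept probe set, 8029535. Macrophage markers moved with it in part: over 11 tested markers, the mean log2 intensity was 4.45 to 4.51 on combined arrays, 4.56 to 4.58 on trans-fat/HFCS arrays, 4.29 to 4.32 on MSG arrays and 4.25 to 4.38 on control arrays. By summed intensity the same markers read 346 to 362 (combined), 316 to 348 (trans-fat/HFCS), 275 to 301 (MSG) and 308 to 316 (control). Their median change with trans fat and HFCS was 0.19, and 1 of 11, CD68, passed (0.78, limma adjusted p = 0.015). CD68 also passed in trans-fat/HFCS minus control (1.31, limma adjusted p = 0.015), which uses the arrays with the muscle signal. In combined minus MSG, 0 of the 11 passed. APOE gave 0.30 and 0.38 in these comparisons and passed in neither. The part of macrophage RNA in the APOE value was not tested.

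APOA2 and LCAT are the other 2 genes of the high-density particle with values that leaned one way on the combined diet, neither passing the test. APOA2, the second structural protein, had log2 intensities of 6.87 and 6.94 on the combined arrays, 7.11 and 7.24 on the trans-fat/HFCS arrays, 7.34 and 7.03 on the MSG arrays, and 7.33 and 7.24 on the control arrays. Both combined arrays were below all 6 others, and the difference from control was -0.38 (SE 0.17, -0.77 to 0.01, limma adjusted p = 0.32), with 3 of 3 probe sets negative. The brightest, 7921838, also gave -0.38. LCAT had 7.65 and 7.57 on the combined arrays, 7.52 and 7.39 on the trans-fat/HFCS arrays, 7.36 and 7.52 on the MSG arrays, and 7.29 and 7.33 on the control arrays. Both combined arrays were above all 6 others, and the difference from control was 0.29 (SE 0.16, -0.07 to 0.66, limma adjusted p = 0.40), with 6 of 6 probe sets positive. The brightest, 8002149, gave 0.18. APOA1 differed from control on the same diet by 0.39 (0.03 to 0.75, limma adjusted p = 0.26). The share of all genes with both combined arrays beyond the 6 others was not counted.

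APOM encodes a lipocalin on high-density lipoprotein that carries sphingosine 1-phosphate. Its log2 intensity was 7.19 and 6.87 on the combined arrays, 7.47 and 6.86 on the trans-fat/HFCS arrays, 7.33 and 7.36 on the MSG arrays, and 6.87 and 7.01 on the control arrays. The trans-fat/HFCS arrays differed from each other by more than the diets did (SD 0.43, n = 2). The dimmest kept signal, 8118215, averaged in with its copies, read 5.06 and 2.35 on these arrays (SD 1.92, n = 2). The other kept signals of APOM had SDs of 0.06 to 0.14 there, so the gap was not shared by the brighter probe sets. The MSG diet minus control was 0.41 (-0.10 to 0.92, limma adjusted p = 0.77), and the interaction was -0.54 (-1.26 to 0.18), or -0.23 without the first trans-fat/HFCS array and -0.85 without the second. Its brightest probe set, 8118212, gave 0.47 for the MSG diet minus control, with 10.05 and 10.07 on the MSG arrays and 9.62 and 9.57 on the control arrays.

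APOB and MTTP, which build the very-low-density particle, did not pass the test in any comparison. APOB, the core protein of the particle, had log2 intensities of 6.69 and 6.73 on the combined arrays, 6.57 and 6.43 on the trans-fat/HFCS arrays, 6.64 and 6.45 on the MSG arrays, and 7.16 and 6.89 on the control arrays. Both control arrays lay above the 6 arrays of the other diets, and the share of all genes with control so separated was not counted. Against control, the difference was -0.31 on the combined diet (SE 0.17, limma adjusted p = 0.40), -0.52 on the trans-fat/HFCS diet (SE 0.17, -0.92 to -0.13, adjusted p = 0.15) and -0.48 on the MSG diet (SE 0.17, -0.87 to -0.09, adjusted p = 0.53). With the median of the probe sets the 3 values were -0.55, -0.98 and -0.81 and did not pass. The combined difference was -0.18 without the first control array and -0.45 without the second.

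Among the 21 kept probe sets of APOB, 15 were negative against control on the combined diet, 17 on the trans-fat/HFCS diet and 19 on the MSG diet. These counts share the control arrays, and probe sets of 1 gene are not replicates. The brightest, 8050624, read 12.65 and 12.84 on the combined arrays, 12.60 and 12.77 on the trans-fat/HFCS arrays, 13.12 and 12.90 on the MSG arrays, and 13.20 and 13.18 on the control arrays. Its differences from control were -0.45, -0.51 and -0.18 in that order of diets. Single probe sets ranged more widely, between -2.41 and 1.13 on the combined diet, and none passed.

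MTTP, the lipid-loading factor, had its highest values on the MSG arrays. Its log2 intensity was 6.95 and 6.93 on the combined arrays, 6.89 and 7.17 on the trans-fat/HFCS arrays, 7.44 and 7.42 on the MSG arrays, and 6.89 and 6.90 on the control arrays. The MSG arrays lay above all 6 others, and it was not counted for how many of all genes the MSG arrays were so separated. The MSG diet minus control was 0.53 (SE 0.17, 0.16 to 0.91, 1.45-fold, unadjusted p = 0.010, limma adjusted p = 0.42), and the combined diet minus the MSG diet was -0.49 (SE 0.17, -0.86 to -0.11, adjusted p = 0.18).

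Of 13 MTTP probe sets, 12 were positive on the MSG diet against control, with a median of 0.37. The brightest, 8096598, gave 0.19, with 10.27 and 10.37 on the combined arrays, 10.39 and 10.63 on the trans-fat/HFCS arrays, 10.62 and 10.61 on the MSG arrays, and 10.35 and 10.51 on the control arrays. For that probe set the MSG and trans-fat/HFCS arrays overlapped. The largest difference was that of 8096582, singled out after its values were seen, at 2.70 (limma adjusted p = 0.13). It read 4.81 and 4.02 on the combined arrays, 4.92 and 5.43 on the trans-fat/HFCS arrays, 6.15 and 6.12 on the MSG arrays, and 3.73 and 3.14 on the control arrays.

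**Figure D3:**
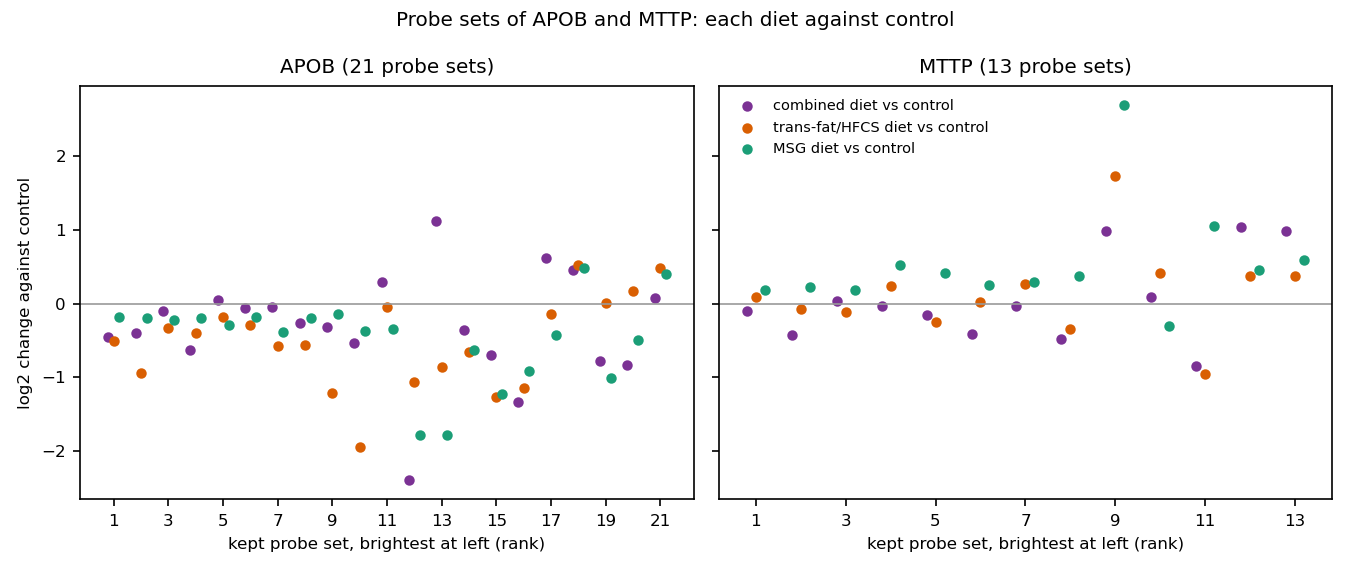
Log2 difference from control (vertical axis) of each kept probe set of APOB (left, 21 probe sets) and MTTP (right, 13 probe sets), ordered by brightness (horizontal axis, brightest at 1). Colours mark the combined, trans-fat/HFCS and MSG diets. On the MSG diet 19 of 21 APOB points lie below 0 and 12 of 13 MTTP points above it.

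Whether MSG acted differently with and without trans fat and HFCS was tested by the interaction, that is, combined minus trans-fat/HFCS less the difference MSG minus control. APOB gave 0.69 (SE 0.25, 0.13 to 1.25, unadjusted p = 0.021, limma adjusted p = 0.45) and MTTP -0.62 (SE 0.23, -1.15 to -0.09, unadjusted p = 0.026, limma adjusted p = 0.48). Over the alternatives the APOB value lay between 0.24 (brightest probe set) and 1.25 (median of the probe sets), and the MTTP value between -0.76 and -0.35. None of the 10 genes passed, where 0.151% of all genes did, and 2 of 10 had an unadjusted p under 0.05, against 9.07% of all genes. The interaction and the MSG main effect include the trans-fat/HFCS arrays with the muscle signal, and 8 and 9 of the 12 muscle markers were lower in these comparisons. The part of muscle RNA in the APOB and MTTP interaction values was not tested.

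For the MSG main effect none of the 10 passed either (0.329% of all genes did), and 1 of 10 had an unadjusted p under 0.05, against 7.91% of all genes. That gene was APOA5, at 0.31 (SE 0.12, 0.03 to 0.59, unadjusted p = 0.033, limma adjusted p = 0.58). MTTP gave 0.22 (-0.04 to 0.49). The median change of the 10 was 0.13, with 7 positive and 3 negative, beside a median of 0.00 and 50.8% positive for all genes.

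None of the 10 passed in the remaining comparisons by limma. The combined diet against control gave 0 calls (1.16% of all genes) and 2 of 10 unadjusted p under 0.05 (16.5% of all genes), APOA5 and APOA1. The trans-fat/HFCS diet against control gave 0 (2.48%) and 2 (18.3%), APOA5 and APOB. The MSG diet against control gave 0 (0.296%) and 2 (7.64%), MTTP and APOB. The combined diet against the MSG diet gave 0 (1.66%) and 2 (17.3%), APOA5 and MTTP, and against the trans-fat/HFCS diet 0 (0.179%) and 0 (8.98%). Of the 67 probe set signals, 0 passed outside the trans-fat/HFCS main effect. Of all kept probe sets, 0.163% passed for the MSG main effect, 0.0521% for the interaction, 0.0700% for the combined diet, 1.00% for the trans-fat/HFCS diet and 0.125% for the MSG diet against control, 0.499% for the combined against the MSG diet and 0.0793% for the combined against the trans-fat/HFCS diet. The test of any difference among the 4 diets gave 0 calls (3.20%) and 2 unadjusted p under 0.05, with APOA5 at an adjusted p of 0.077 and MTTP at 0.22.

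**Figure D4:**
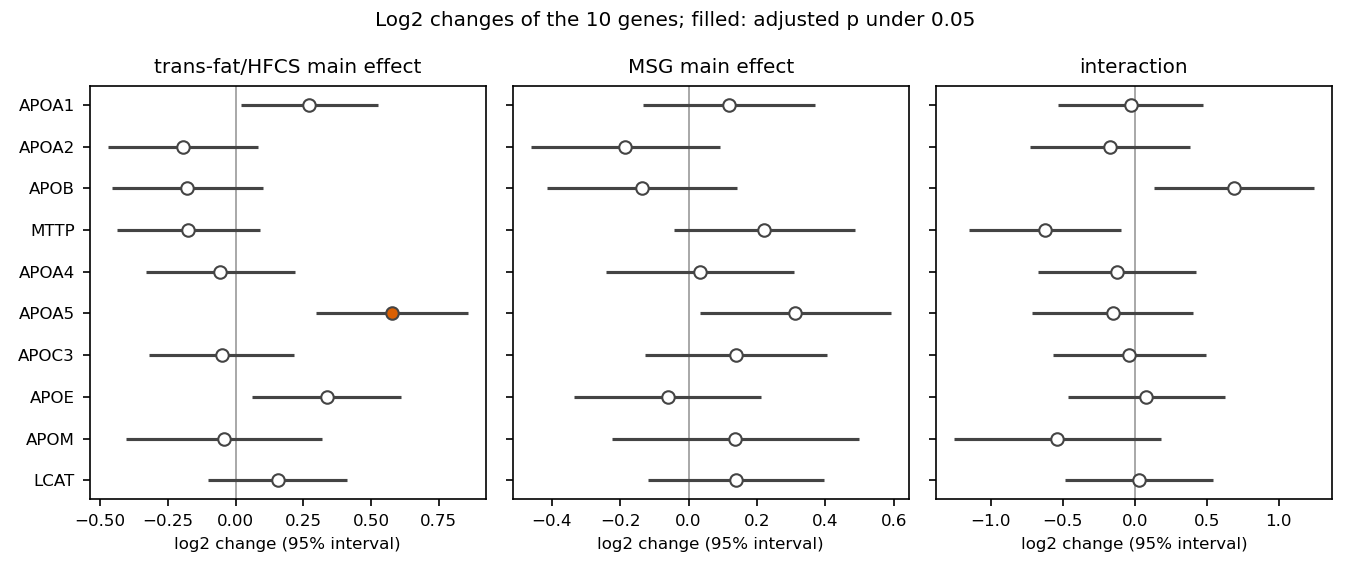
Log2 change (horizontal axis) of each gene for the trans-fat/HFCS main effect, the MSG main effect and the interaction, with 95% intervals from the limma fit of 8 arrays. The filled point, APOA5 at 0.58, is the 1 value with an adjusted p under 0.05. APOB at 0.69 and MTTP at -0.62 in the interaction have open points.

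Over the 10 genes the change with trans fat and HFCS ranged between -0.20 (APOA2) and 0.58 (APOA5), with 4 positive and 6 negative. The median was -0.05, beside a median of 0.02 and 52.3% positive for all genes. At an unadjusted p under 0.05 there were 3 of 10, against 24.5% of all genes. The share of the 10 that differed was thus near that of all genes, and APOA5 was not tested as standing apart from them. The share of all genes includes the trans-fat/HFCS arrays with the muscle signal, and 11 of 12 muscle markers passed here. The part of muscle RNA in that share was not tested.

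The genes whose pattern over the 8 arrays was most like that of APOA5 were FBL (Pearson r 0.97, Spearman rho 0.98), MAPKSP1 (r 0.96) and HLF (r 0.96), out of 14561 genes compared. These are the 3 highest of many correlations over 8 arrays that share 4 diets, and they are given as a description. HLF, a transcription factor of the PAR bZIP family, read 5.74 and 6.00 on the combined arrays, 5.56 and 5.73 on the trans-fat/HFCS arrays, 5.22 and 5.28 on the MSG arrays, and 4.82 and 4.94 on the control arrays, and rose by 0.69 with trans fat and HFCS (limma adjusted p = 0.013). FBL and MAPKSP1 had changes of 0.28 and 0.27 and did not pass.

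The other genes of lipoprotein metabolism were counted in lists with trans fat and HFCS as the comparison. Of all genes, 7.66% passed in that comparison and 52.3% were positive. Whether the signs of a list differ from those of all genes was not tested. Of 15 other apolipoproteins, 0 passed by limma, with a median of -0.06. The smallest p were those of APOD (0.49, adjusted p = 0.069), which carries small hydrophobic molecules, and APOO (-0.41, adjusted p = 0.13), a mitochondrial membrane protein. Of 20 tested genes for the assembly and secretion of triglyceride-rich particles, 0 passed, 16 were negative and the median was -0.17. P4HB, the protein disulfide isomerase that pairs with the MTTP product, gave -0.34 (adjusted p = 0.13), and SEC24A, a coat protein of vesicles leaving the endoplasmic reticulum, -0.31 (adjusted p = 0.21). Of 12 tested genes for uptake and efflux, 0 passed, 11 were negative and the median was -0.15, with VLDLR, a receptor of triglyceride-rich particles, at -0.36 (adjusted p = 0.13) and ABCA1, the lipid exporter that feeds APOA1, at -0.22 (adjusted p = 0.32).

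Among 11 tested genes for lipases, remodelling and transfer, 1 passed, where 7.66% of all genes did. ANGPTL4, a secreted inhibitor of lipoprotein lipase, read 6.71 and 6.55 on the combined arrays, 6.47 and 6.53 on the trans-fat/HFCS arrays, 5.92 and 6.17 on the MSG arrays, and 5.71 and 5.99 on the control arrays. The 4 arrays with trans fat and HFCS lay above the other 4, and ANGPTL4 rose by 0.61 (SE 0.13, limma adjusted p = 0.024). It had 1 kept probe set, and with its dim probe sets averaged in the change was 0.00 (adjusted p = 0.98).

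Of 22 tested transcriptional regulators of apolipoprotein genes, 1 rose and 1 fell, where 4.44% of all genes rose and 3.22% fell, so the counts of both lists are near those of all genes. NR0B2, a corepressor of nuclear receptors in bile acid and lipid metabolism, read 6.94 and 6.97 on the combined arrays, 7.17 and 7.21 on the trans-fat/HFCS arrays, 6.72 and 6.38 on the MSG arrays, and 6.56 and 6.38 on the control arrays. It rose by 0.56 (SE 0.13, limma adjusted p = 0.030). FOXO1, an insulin-restrained transcription factor known to drive MTTP and APOC3, read 6.82 and 6.91 on the combined arrays, 6.46 and 6.71 on the trans-fat/HFCS arrays, 7.22 and 7.24 on the MSG arrays, and 7.09 and 7.18 on the control arrays. It fell by 0.46 (SE 0.12, limma adjusted p = 0.047). Leaving out each array in turn, FOXO1 kept its call in 0 of 8 fits, NR0B2 in 1 and ANGPTL4 in 2. With the median of the probe sets none of the 3 passed (limma adjusted p = 0.44 for FOXO1, 0.12 for NR0B2 and 0.096 for ANGPTL4). With 1 kept probe set, the ANGPTL4 values are the same by median and mean. Its adjusted p moved only through the other genes of the fit, so this is no check of its probe sets. In the same comparison MTTP gave -0.18 and APOC3 -0.05, and neither passed. Against control, MTTP gave 0.14 on the trans-fat/HFCS diet and 0.05 on the combined diet. A link between FOXO1 and these genes was not tested.

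**Figure D5:**
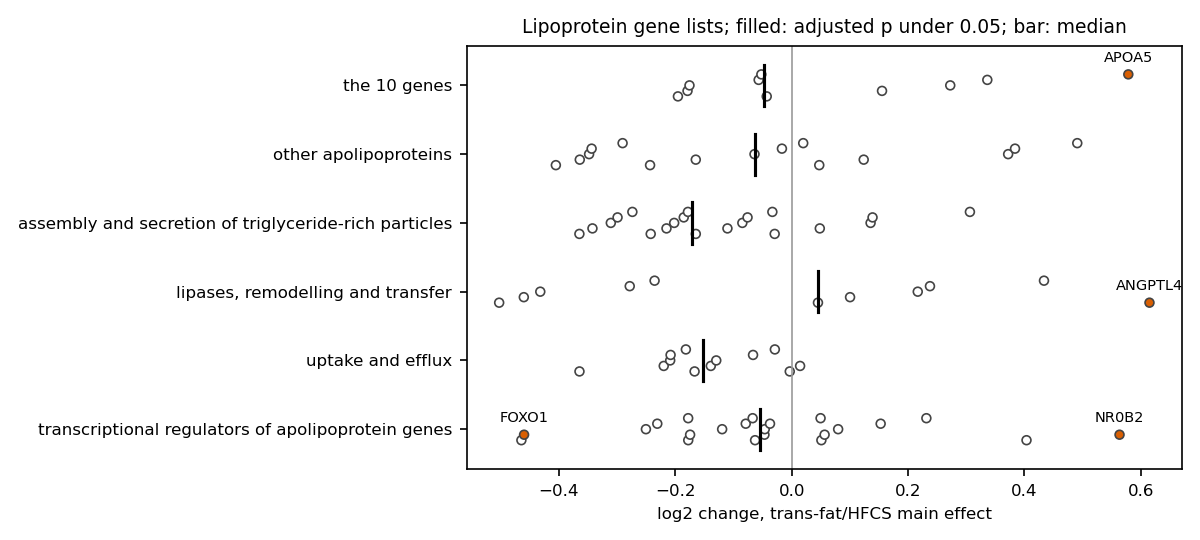
Log2 change with trans fat and HFCS (horizontal axis) of each tested gene, by list (rows). Points are genes, filled where the adjusted p was under 0.05, and the bar is the median of the list. APOA5 at 0.58, ANGPTL4 at 0.61 and NR0B2 at 0.56 lie to the right and FOXO1 at -0.46 to the left.

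In the MSG main effect and in the interaction no gene of these lists passed by limma. The smallest p in the MSG main effect was that of SORT1, a sorting receptor that binds apolipoprotein B, at 0.61 (SE 0.12, unadjusted p = 0.000654, limma adjusted p = 0.11). The median of its list was 0.10, with 14 of 20 positive, beside 50.8% of all genes.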

How the data were processed

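Liver RNA, on 2 arrays per diet each labelled with a different cat number, was measured on human HuGene 1.0 ST arrays. The labels' protocols give 250 ng of RNA. The authors deposited normalized linear intensities, one per probe set and array. Per the submitters' processing notes, the tools and build named are GCRMA, Partek and hg19, and their roles and versions are not given there. A mismatch between a cat transcript and a human probe lowers its signal, and a base that varies among cats can shift a probe set while expression stays the same. The number of arrays limits the precision.

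Intensities were log2 transformed. Probe sets with a mean above the median of all 257101 (log2 2.43) were kept, those with exactly 1 gene in the platform annotation were averaged per gene, and a 4-group model was fitted to all 17910 genes (R 4.3.3, limma 3.58.1, lmFit and eBayes, two-sided, Benjamini-Hochberg, threshold 0.05). The fit had 4 residual degrees of freedom and gained 5.01 from the prior. The same fit was run on the 128550 kept probe sets. It was checked on simulated data.

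The 10 genes and all lists were chosen with earlier results of these data known, so no list is independent evidence. Outside the 10, the text names the genes of a list that passed or, with none, those with the smallest p. Of each of the 10 it names the brightest probe set and those that passed. Further probe sets of APOA5, APOB, APOC3, APOM and MTTP were singled out after their values were seen. Marker lists of 7 cell types were read beside the results. With trans fat and HFCS the called markers were G6PC (-0.56) of 14 hepatocyte, CD68 of 11 macrophage, PDGFRB (-0.60) of 8 stellate cell, and ADIPOQ (0.58) and LEP (-0.63) of 5 adipocyte markers; 0 of 10 enterocyte and 0 of 6 cholangiocyte markers passed, and 11 of 12 skeletal muscle markers did. Alternatives covered the filter, the summary per gene, normalization, the prior, the replicate number as a block, leaving out arrays and counting copies of a probe set once; the last, and leaving out both trans-fat/HFCS arrays, were chosen after seeing the data.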

Additional observations from a re-analysis of the deposited data

How the results depend on the processing

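Over 18 alternatives no called value changed sign. The 10 genes gave 1 call with trans fat and HFCS; this became 0 with the median of the probe sets of a gene, 0 without both trans-fat/HFCS arrays and 3 with a trended and robust prior (APOA5, APOA1 at an adjusted p of 0.027 and APOE at 0.036), and lay between 0 and 1 when each array was left out. Leaving out an array removes a residual degree of freedom; the cause of the other changes was not tested. APOA5 kept its call with no filter (0.48), a 75th percentile filter (0.62), the brightest probe set (0.59), quantile normalization (0.59), copies counted once and 2 factors without interaction (both 0.58). The calls of any diet difference became 1 with no filter and 1 with the trended and robust prior, and those of the trans-fat/HFCS diet against control became 1 with no filter. Those of the combined diet against control became 1, APOA5, with no filter (0.75, adjusted p = 0.020), the 75th percentile filter (1.01, 0.0496), the brightest probe set (1.03, 0.037), quantile normalization (0.91, 0.049) and the trended and robust prior (0.89, 0.024). The probe sets called with trans fat and HFCS became 2 with the trended and robust prior and 0 with the replicate block, and were 0 to 0 when each array was left out. The other comparisons stayed at 0 calls, and 34 uncalled values changed sign. Counts over all genes moved more. Trans fat and HFCS gave 1372 calls (233 to 2182 over the alternatives), the MSG main effect 59 (1 to 106) and the interaction 27 (5 to 56). The combined diet gave 207 against control (0 to 730), the trans-fat/HFCS diet 444 (62 to 1120) and the MSG diet 53 (13 to 102). The combined diet gave 297 against the MSG diet (54 to 986) and 32 against the trans-fat/HFCS diet (9 to 53), and any diet difference gave 573 (170 to 1217). Probe sets gave 3486 for trans fat and HFCS (876 to 4480) and 210 for MSG (33 to 269).

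Replicate numbers did not pair the arrays (correlation of deviations between diets -0.06 to 0.04). With the replicate block the 10 genes kept 1 call with trans fat and HFCS (APOA5, adjusted p = 0.042) and 0 elsewhere, FOXO1 lost its call (0.064, and 0.053 with quantile normalization; NR0B2 lost it at 0.053 with the brightest probe set), and 1026 genes were called in all.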

Other observations

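Probe sets that the annotation gives to 2 genes were left out of the 10 genes. The kept one shared by APOE and HMGA1, 8029534, changed by 0.19 with trans fat and HFCS (95% interval -0.21 to 0.60, limma adjusted p = 0.63). The 2 kept ones shared by LCAT and SLC12A4, neighbours in the cat gene table, changed by -0.07 and -0.06 and did not pass. Combined minus MSG, that of APOE and HMGA1 gave 0.28, and APOE itself 0.38.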
